A study of Drosophila melanogaster with 3 samples.

Results

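The genes described here encode the proteins of the cytoplasmic ribosome of Drosophila melanogaster. They were chosen by name: every protein-coding gene of the fly annotation whose symbol begins with RpL (large subunit) or RpS (small subunit). The rule found 92 genes among 13945 protein-coding genes on the 6 chromosome arms, 54 of the large and 38 of the small subunit. Of the 92, 49 had a reproducible binding summit of the protein CG16815 within 500 bp of a transcription start site (TSS).

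The ribosome is built from a large and a small subunit, each an assembly of ribosomal RNA and many small proteins that are needed in near-equal amounts. Their genes are among the most highly transcribed in growing cells. In Drosophila many of them start transcription at a pyrimidine-rich TCT initiator in place of the usual initiator, and they are transcribed with the TATA-binding-protein relative TRF2. Factors that read the DNA replication-related element (DRE) and Motif 1 are known at such promoters, and loss of 1 copy of many of these genes gives the Minute phenotype of slow development and thin bristles.

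Chromatin immunoprecipitation with sequencing (ChIP-seq) was carried out on whole embryos aged 0 to 10 hours, males and females pooled, from a transgenic fly line that stably expressed CG16815 with a C-terminal tag of green fluorescent protein (GFP). Chromatin was sheared by sonication to 200 to 800 bp and recovered with an antibody to GFP. There was 1 group of 3 biological replicates, all from the 1 line, and no untagged or input library was analysed here. The values therefore describe where signal was called and how the genes rank against each other, and contain no comparison of conditions.

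The authors deposited a list of called regions for each replicate, a list called from the pooled replicates and a list of the regions that passed a test of reproducibility (IDR). Each region carried a summit and a signal value. The passing list held 3922 regions, and these were exactly the 3922 strongest of the 18764 pooled regions. The replicate lists held 30000, 21989 and 27358 regions in replicates 1, 2 and 3. Because signal was computed separately in each list, replicates were compared by rank, rank 1 being the highest signal, and a strong summit in a replicate means one among its 3922 best-ranked regions. Read depth is unknown. Replicate 3 stood apart. Of the 3922 best regions of replicates 1 and 2, 60.6% and 67.4% were found among those of replicate 3. Of those of replicate 1, 78.1% were found among those of replicate 2. Ranks are therefore given for each replicate. The main counts from the pooled list are also given for passing sites among the 3922 best of both replicate 1 and replicate 2. This rule is stricter than a strong summit in either replicate alone. The passing list was made from all 3 replicates, so these counts are not free of replicate 3. Apart from the count over all 92 genes, these values were chosen after seeing the data.

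The promoters with the highest signal belonged to RpS27, RpL34b and RpL7. RpS27, a zinc-binding protein of the small subunit, had a passing signal of 791.8 and rank 188 of 3922, and its summit ranked 492, 214 and 95 in replicates 1, 2 and 3. RpL34b, a large-subunit protein gene, had a signal of 764.6 and rank 206, with ranks 265, 231 and 175. RpL7, also of the large subunit, had a signal of 755.7 and rank 215, with ranks 412, 284 and 102. All 3 genes ranked highest in replicate 3 and lowest in replicate 1. Their called regions, in dm6 coordinates, were chr3R:25247365-25247669, chr3R:9401149-9401550 and chr2L:10200899-10201171. The summits of RpS27 and RpL34b lay upstream of the gene, at -10 and -87 bp from the TSS, and that of RpL7 lay at 40 bp, in its 5′ untranslated region.

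The promoter stretches from -150 to 20 bp around the TSS are shown for 8 of the 12 strongest genes, because most of their summits fall inside this stretch, and for both copies of RpS14, of which only 1 passed. They are read 5′ to 3′ on the gene's own strand from the dm6 reference genome (RefSeq), with the strand after the coordinates. Capitals mark the TCT initiator (TCTTT or CCTTT at the TSS), DRE (TATCGATA), the TATA box (TATAAA) and the GATA core (AGATAA), the last 3 on either strand. TATAAA and its reverse complement overlap in RpS27. The genes lie at chr3R:25247495-25247664 on the minus strand (RpS27), chr3R:9401207-9401376 minus (RpL34b), chr3L:1668635-1668804 minus (RpL23A), chr3R:20822031-20822200 plus (RpS20), chr3L:3222941-3223110 minus (RpL28), chrX:9554473-9554642 plus (RpS28b), chr3R:30046142-30046311 minus (RpL32), chr2L:2855920-2856089 plus (RpS21), chrX:7933592-7933761 plus (RpS14a) and chrX:7934748-7934917 plus (RpS14b).
RpS27: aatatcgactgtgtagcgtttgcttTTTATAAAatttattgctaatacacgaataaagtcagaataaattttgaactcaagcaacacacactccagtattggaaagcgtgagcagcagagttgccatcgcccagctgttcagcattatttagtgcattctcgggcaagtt
RpL34b: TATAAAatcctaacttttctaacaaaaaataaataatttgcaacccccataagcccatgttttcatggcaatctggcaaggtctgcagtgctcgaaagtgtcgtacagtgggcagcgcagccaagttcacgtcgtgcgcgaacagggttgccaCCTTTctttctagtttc
RpL23A: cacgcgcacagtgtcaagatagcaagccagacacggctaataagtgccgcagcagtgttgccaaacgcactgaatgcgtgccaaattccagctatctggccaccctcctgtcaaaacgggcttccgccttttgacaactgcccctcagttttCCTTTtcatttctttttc
RpS20: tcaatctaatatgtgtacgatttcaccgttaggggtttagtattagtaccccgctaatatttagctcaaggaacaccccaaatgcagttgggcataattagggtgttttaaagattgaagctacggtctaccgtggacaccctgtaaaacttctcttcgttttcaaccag
RpL28: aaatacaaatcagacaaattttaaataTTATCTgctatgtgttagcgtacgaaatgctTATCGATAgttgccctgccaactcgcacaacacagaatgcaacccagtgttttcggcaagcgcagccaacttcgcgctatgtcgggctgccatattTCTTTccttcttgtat
RpS28b: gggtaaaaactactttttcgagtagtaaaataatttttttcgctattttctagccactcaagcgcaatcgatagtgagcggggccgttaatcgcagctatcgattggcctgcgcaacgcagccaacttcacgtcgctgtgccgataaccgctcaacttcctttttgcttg
RpL32: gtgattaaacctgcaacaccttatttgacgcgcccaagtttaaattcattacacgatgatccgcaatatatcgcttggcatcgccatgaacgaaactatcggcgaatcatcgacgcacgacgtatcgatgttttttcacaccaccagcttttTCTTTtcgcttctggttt
RpS21: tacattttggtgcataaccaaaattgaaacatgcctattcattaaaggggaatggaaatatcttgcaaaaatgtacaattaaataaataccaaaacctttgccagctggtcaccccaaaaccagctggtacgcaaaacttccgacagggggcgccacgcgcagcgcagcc
RpS14a: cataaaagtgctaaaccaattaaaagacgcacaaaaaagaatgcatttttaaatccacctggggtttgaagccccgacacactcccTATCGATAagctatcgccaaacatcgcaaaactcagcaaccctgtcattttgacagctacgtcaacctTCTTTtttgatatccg
RpS14b: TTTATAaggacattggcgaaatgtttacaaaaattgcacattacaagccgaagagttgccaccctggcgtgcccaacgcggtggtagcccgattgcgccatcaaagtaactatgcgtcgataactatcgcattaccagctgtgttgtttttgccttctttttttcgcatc
The start site used for these stretches is the annotated TSS nearest to the passing summit. At that start RpL34b, RpL23A, RpL28, RpL32 and RpS14a carried a TCT initiator. RpS27, RpS20, RpS28b, RpS21 and RpS14b had no match beginning within 5 bp of the base before the TSS. In RpS14a the match begins at the edge of that limit, and in RpS14b a TCTTT begins just past it. In RpS28b a CCTTT lies further downstream. The RpS14 copies are therefore not told apart by this element. The counts over all promoters further on use the start of the canonical transcript, which in RpS21 has a TCT initiator and in RpL32 has none. A DRE was present in RpL28 and RpS14a, and in RpL28 it lay at -6 bp from the passing summit in genome coordinates.

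The next strongest genes followed the first 3 at a distance. RpL23A, which lies near the exit of the peptide tunnel, had a passing signal of 522.9 and rank 463, with ranks 788, 585 and 260 in replicates 1, 2 and 3. RpS20, of the small subunit, had 409.1 and rank 713, with ranks 813, 615 and 1350. RpL28 had 367.0 and rank 868, with ranks 1204 and 318 in replicates 2 and 3 and no summit at the promoter in replicate 1. RpS20 was the only one of the 12 strongest that ranked worst in replicate 3. RpS28b had a signal of 351.2 (rank 942, with replicate ranks 1822, 1014 and 604). RpL14 had 349.5 (rank 953, with replicate ranks 1596, 1115 and 539). RpL32, a widely used reference gene for expression measurements, had 327.5 (rank 1065, with replicate ranks 1396, 1188 and 655). RpS21 had 320.1 (rank 1110, with replicate ranks 1708, 1101 and 942). RpL13A had 318.2 and rank 1122, with replicate ranks 4586, 1833 and 264, the widest spread among those of the 12 with a summit in every list.

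**Figure D1:**
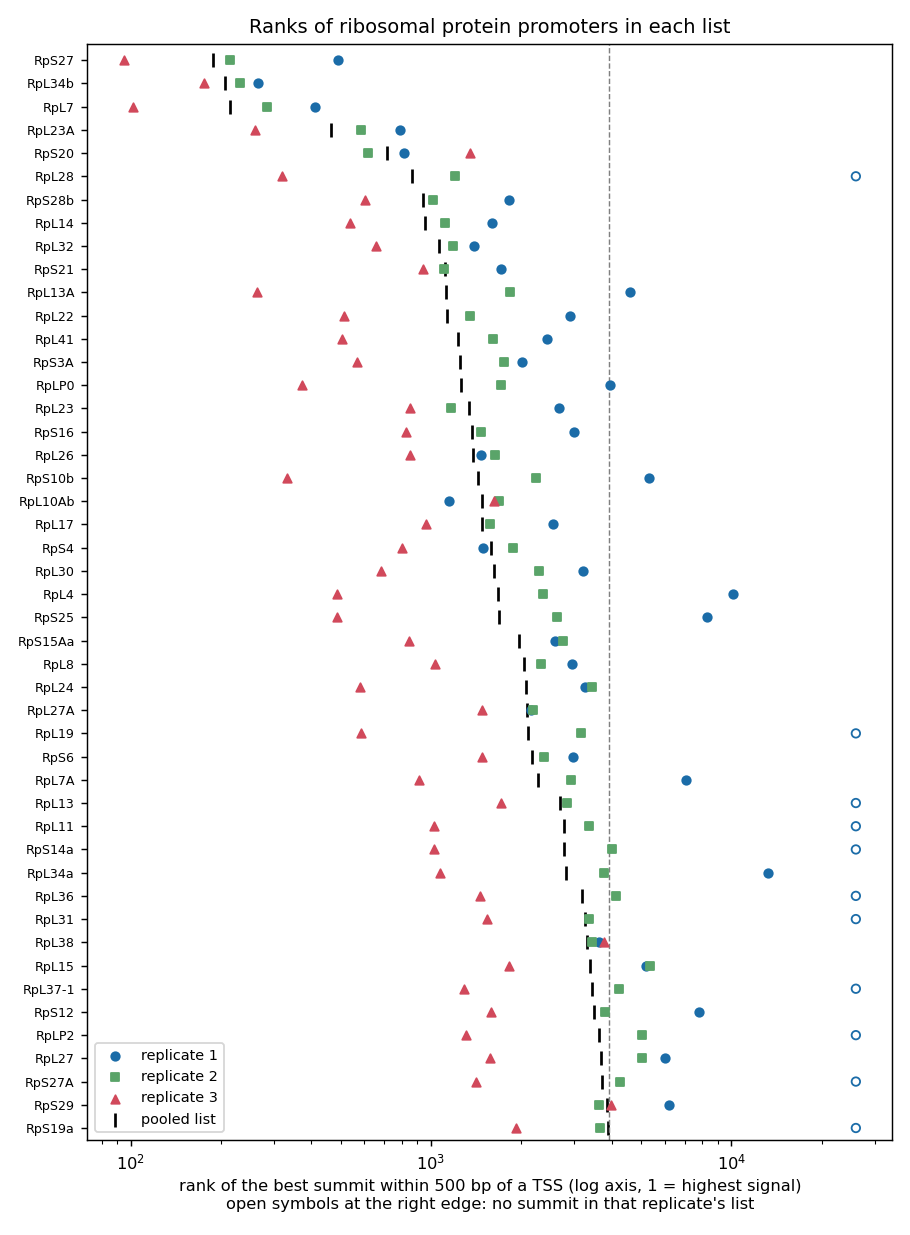
Rank of the best summit within 500 bp of a TSS for 47 genes with a passing summit (log axis, rank 1 is the highest signal), in replicates 1, 2 and 3 and in the pooled list, genes ordered by pooled rank. The dashed line is rank 3922, and open symbols at the right edge are the 11 genes with no summit in replicate 1; the triangles of replicate 3 lie to the left of the other replicates for most genes.

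Of the 92 genes, 49 had a passing summit in the window of 500 bp around a TSS, or 53.3% (exact binomial 95% interval 42.6 to 63.7%, which covers counting error over genes only). The same held for 15.9% of all protein-coding genes. Each of the 49 genes had 1 passing summit of its own, and no summit was shared by a pair of members. Another 23 genes had a summit only in the weaker part of the pooled list, 6 only in a replicate list and 14 in none. With the weaker pooled regions included, 72 genes (78.3%) had a summit against 32.2% of all coding genes, and with pooled regions of q under 0.05, 61 (66.3%) did against 20.7%. The share was thus above that of all genes at each of these thresholds.

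The passing genes did not crowd the top of the list. Their median rank was 1621 (range 188 to 3881), and that of the 2171 other coding genes with a passing summit was 1492. With the list cut into 4 parts of equal size by rank, 8, 19, 11 and 11 of the 49 genes lay in them from strongest to weakest. The other genes were most frequent in the strongest part, which held 35.6% of them and 16.3% of the ribosomal protein genes. The weakest passing genes were RpS29 (signal 127.1, rank 3844), and RpS19a (126.0, rank 3881). RpS7 (pooled rank 3936) and RpL18 (4119) lay just outside the passing list.

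Both subunits were represented. Of the 54 large-subunit genes, 32 had a passing summit (59.3%, exact interval 45 to 72.4%), and of the 38 small-subunit genes 17 did (44.7%, 28.6 to 61.7%). The intervals overlap, and the difference was not tested. For passing sites strong in both replicate 1 and replicate 2 the counts were 15 (27.8%) and 10 (26.3%), against 12.8% of all coding genes. The subunits were close by this stricter rule. By the mean share with a strong summit in replicates 1 and 2 they were not, at 41.7% for the large and 32.9% for the small subunit. The passing genes of each subunit had similar levels: the median signal was 246.8 and the median rank 1645 in the large subunit, and 253.9 and 1590 in the small subunit. Of the stalk proteins, which recruit elongation factors to the large subunit, RpLP0 passed (signal 298.6, rank 1255), RpLP2 passed near the end of the list (134.3, rank 3624) and RpLP1 had a pooled summit only, at rank 7216. Of RpL5 and RpL11, which enter the ribosome with 5S ribosomal RNA, RpL11 passed (168.7, rank 2776) and RpL5 did not (pooled rank 6157). Of the fusion genes that also encode ubiquitin, RpS27A passed (131.6, rank 3699) and RpL40 did not (pooled rank 7652). Neither the stalk, the 5S particle nor the ubiquitin fusions was therefore covered in full.

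The replicates differed in how highly these promoters ranked. Any summit at the promoter was called for 50% of the 92 genes in replicate 1, 80.4% in replicate 2 and 81.5% in replicate 3, against 32.8%, 36.2% and 38.5% of all coding genes. A strong summit, among the 3922 best of the replicate, was present at 30.4%, 45.7% and 67.4% of the 92 genes, against 14.3%, 16.5% and 14.3% of all coding genes. The mean over replicates was 47.8% ± 18.6 (SD, n = 3) for the ribosomal protein genes and 15.0% ± 1.24 for all coding genes, and without replicate 3 the means were 38.0% and 15.4%. The share of ribosomal protein genes exceeded that of all genes in each of the 3 replicates, and its spread between replicates was far wider. The large subunit gave 33.3%, 50% and 75.9% (53.1% ± 21.5), and the small subunit 26.3%, 39.5% and 55.3% (40.4% ± 14.5). Both subunits had the same order of replicates.

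**Figure D2:**
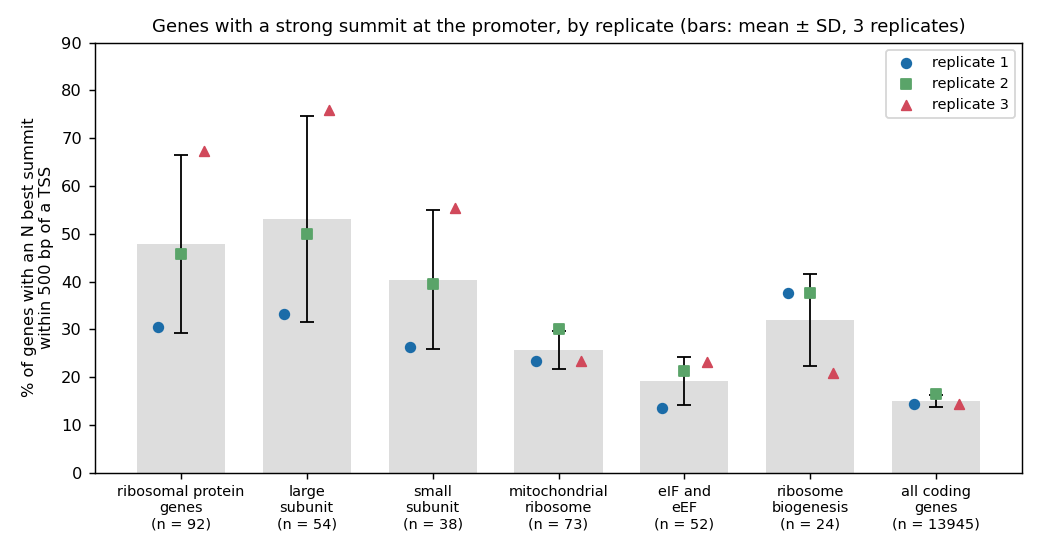
Percentage of genes with a summit among the 3922 best-ranked regions of a replicate within 500 bp of a TSS, for the ribosomal protein genes, each subunit, and 4 other gene lists; points are replicates and bars are the mean ± SD of 3 replicates. Replicate 3 is highest for the ribosomal protein genes (67.4%), and lowest for the ribosome biogenesis genes (20.8%).

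Of the 92 genes, 27 had a strong summit in all 3 replicates, 15 in 2, 21 in 1 and 29 in none. In 20 of the 21 genes with a strong summit in 1 replicate, that replicate was replicate 3, and in the remaining gene it was replicate 2. The same split was not counted over all coding genes. Of those, 14.3%, 16.5% and 14.3% had a strong summit in replicates 1, 2 and 3. Besides the genes already described, those strong in all replicates included RpL8, RpL10Ab, RpL17, RpL22, RpL23, RpL24, RpL26, RpL27A, RpL30, RpL38, RpL41, RpS3A, RpS4, RpS6, RpS15Aa and RpS16. RpL41, which encodes the smallest ribosomal protein, ranked 2439, 1606 and 504 in replicates 1, 2 and 3. RpS6, the substrate of S6 kinase, ranked 2974, 2377 and 1484. RpL24, which bridges the subunits, ranked 3249, 3430 and 582. RpS4 and RpL26 ranked closer together, with 1489, 1879 and 801 for RpS4 and 1464, 1640 and 849 for RpL26. RpL38 had its worst rank in replicate 3 (3638, 3433 and 3772). Among the others of the large subunit, RpL8 ranked 2943, 2319 and 1034, RpL17 2557, 1575 and 964, RpL22 2906, 1348 and 515, and RpL23 2664, 1166 and 854. RpL27A ranked 2155, 2188 and 1483, and RpL30 ranked 3217, 2297 and 680. Of the small subunit, RpS3A ranked 2014, 1756 and 569, and RpS16 ranked 2985, 1464 and 826. Each of these 8 genes ranked best in replicate 3.

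Within the 38 passing genes that had a summit in every replicate list, replicate 3 gave the best rank for 34, replicate 2 for 3 and replicate 1 for 1. That is 89.5% for replicate 3, against 21.6% of the 1963 other coding genes with a passing summit and a summit in every list. Their median ranks were 2622, 1779 and 740 in replicates 1, 2 and 3, while those of the other genes were 1371, 1327 and 1837. The median ratio of the rank in replicate 1 to that in replicate 3 was 3.09 for the ribosomal protein genes and 0.719 for the others, and for replicate 2 against replicate 3 it was 2.38 and 0.668. The ratio of replicate 1 to replicate 2 differed less, with 1.42 against 1.07. The ribosomal protein promoters with a passing summit thus stood higher in replicate 3 than in the other replicates while other promoters stood lower there. Both sets were chosen by a passing list that pools replicate 3. As a description over genes of the same libraries, Spearman's rho of the ranks over the 38 genes was 0.826 between replicates 1 and 2, 0.311 between 1 and 3 and 0.561 between 2 and 3. Over the 1963 others it was 0.905, 0.725 and 0.773.

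The exceptions to this order were few. RpL10Ab ranked 1146, 1689 and 1627 and was the only one of the 38 genes with its best rank in replicate 1. RpS20 and RpL38 ranked best in replicate 2, as did RpS29, with 6209, 3630 and 3964. By the difference between ranks, the widest spreads in the other direction were those of RpL34a (13275, 3765 and 1075), RpL4 (10107, 2368 and 486) and RpS25 (8316, 2623 and 487). All 3 lay among the 3922 best regions of replicates 2 and 3 and outside those of replicate 1.

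The passing summit was found again within 150 bp in all 3 replicate lists for 36 of the 49 genes. It was missing from replicate 1 for 13 genes and from replicate 2 for 1 gene, and it was present in replicate 3 for all 49. That is 73.5% in all lists, against 87.7% of the 2171 other coding genes with a passing summit. In replicate 1 it was found for 73.5% of the ribosomal protein genes and 93% of the others, in replicate 2 for 98% and 99.4%, and in replicate 3 for 100% and 94.8%. The passing list was made from all 3 replicates, so being found in replicate 3 was in part set by how the genes were chosen. The other coding genes were chosen by the same list. The replicate 1 list was the longest of the 3. RpL28, whose replicate ranks are given above, RpL11 (3360 in replicate 2 and 1026 in replicate 3), RpL13 (2847 and 1708) and RpL19 (3151 and 585) had no summit within 500 bp in replicate 1. The same was true of RpL31 (3361 and 1540), RpL36 (4125 and 1462), RpL37-1 (4231 and 1291) and RpLP2 (5039 and 1306). It also held for RpS14a (4014 and 1023), RpS19a (3645 and 1913) and RpS27A (4260 and 1413). In replicate 3 these 11 genes ranked from 318 to 1913. RpL24 and RpS10b had a summit in replicate 1 that was more than 150 bp away, at -197 and -191 bp from the TSS, where the passing summits lay at -5 and -40 bp. For RpLP2 the summit of replicate 2 lay at -38 bp and the passing summit at -226 bp. Passing sites among the 3922 best of both replicate 1 and replicate 2 lay at 25 of the 92 genes (27.2%), against 12.8% of all coding genes.

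No summit was called in any list for RpL6, RpL10Aa, RpL22-like, RpL24-like, RpL37-2, RpL39, RpL7-like, RpS3, RpS9, RpS19b, RpS24, RpS28a, RpS28-like and RpS30. In a window of 1001 bp around the TSS of these 14 genes, 100% of the 31-base stretches occurred once in the genome, so short reads could be placed there. Over all 92 genes the lowest such share was 81.6%. Among the 23 genes with a summit only in the weaker pooled list, 13 had a strong summit in replicate 3, 1 in replicate 1 and 0 in replicate 2. RpL35A and RpL37A were the highest of these in replicate 3, with ranks 1337 and 1793. RpL12 had its pooled summit at rank 18452, close to the end of the pooled list, and rank 3799 in replicate 3. Of the 6 genes called only in a replicate list, RpL29 had a strong summit in replicate 3 (rank 2703), while RpS15 (rank 3978 there), RpS2, RpS10a, RpS13 and RpS15Ab had none.

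Several ribosomal proteins are encoded by a pair of genes in the fly, often with 1 copy used broadly and the other mostly in the germ line. There were 8 pairs marked a and b, and in 7 of them exactly 1 copy had a passing summit. Counting only passing sites strong in both replicate 1 and replicate 2, this held for 5 pairs, and in 3 pairs neither copy remained. The passing copy was a in RpS14, RpS15A and RpS19, for example, and b in RpL10A, RpS10 and RpS28. RpS14a had a signal of 168.4 (rank 2781), and RpS14b, which follows it in tandem, had a pooled summit at rank 9130 and ranks 9895 and 17560 in replicates 2 and 3. RpS15Aa had 218.4 (rank 1962, with replicate ranks 2580, 2760 and 847), and RpS15Ab had rank 15335 in replicate 2 and no other summit. RpS19a passed (rank 3881) and RpS19b was called nowhere. Copies share sequence, so reads of one could be assigned to the other where they are identical, but the promoter windows were at least 81.6% unique.

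Of the b copies that passed, RpL10Ab had a signal of 268.2 and RpS28b 351.2, while RpL10Aa and RpS28a were called nowhere. RpS10b had 273.7 (rank 1430, with replicate ranks 5313, 2239 and 332), and RpS10a had ranks 9982 and 19760 in replicates 2 and 3. RpL34 was the 1 pair with both copies in the passing list, and the copies differed in level. RpL34b had a signal of 764.6 and replicate ranks 265, 231 and 175, and RpL34a had 166.7 and replicate ranks 13275, 3765 and 1075. RpL37-1 had 140.3 (rank 3448) and RpL37-2 had no summit. None of the 5 genes named as -like copies passed, and 4 of them were called nowhere. RpLP0-like, whose relatives in yeast act in ribosome assembly, had a pooled summit at rank 5059 and ranks 6163, 4903 and 4387. Of the 69 genes outside these pairs and -like copies, 39 passed (56.5%) and 6 were called nowhere.

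The passing summits lay close to the start site. The median offset from the nearest TSS was -69 bp (quartiles -116 and -31, range -363 to 102, n = 49), negative values being upstream. For the 2171 other coding genes it was -160 bp (quartiles -251 and -98). A summit within the 150 bp just upstream was found in 36 of the 49 genes (73.5%), and in 37.2% of the others. Nearly equal shares lay upstream at any distance, 87.8% and 90.8%. The called region covered the TSS in 41 of the 49 genes. The regions were 121 to 416 bp wide, and 30 had the width of 416 bp that was also the median of the passing list. The large and small subunit had median offsets of -76.5 and -51 bp.

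The position also differed between replicates. In the 38 genes with a summit in each list, the median offset was -108 bp in replicate 1, -73.5 bp in replicate 2 and -48.5 bp in replicate 3. In the 1963 other genes it was -161, -160 and -157 bp. The summit was closest to the TSS in replicate 3 in 20 genes (52.6%), in replicate 2 in 12 (31.6%) and in replicate 1 in 6 (15.8%). In the other genes these shares were 35.8%, 34.1% and 32.8%, so the share for replicate 2 was near theirs. RpL23 had its summit at -319, -308 and -139 bp in replicates 1, 2 and 3. RpS12, which has a role in cell competition between Minute and normal cells, had summits at -297, -179 and -36 bp. The strongest genes showed less of this: the summits lay at -9, 4 and -10 bp in RpS27 and at 37, 22 and 33 bp in RpL7.

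**Figure D3:**
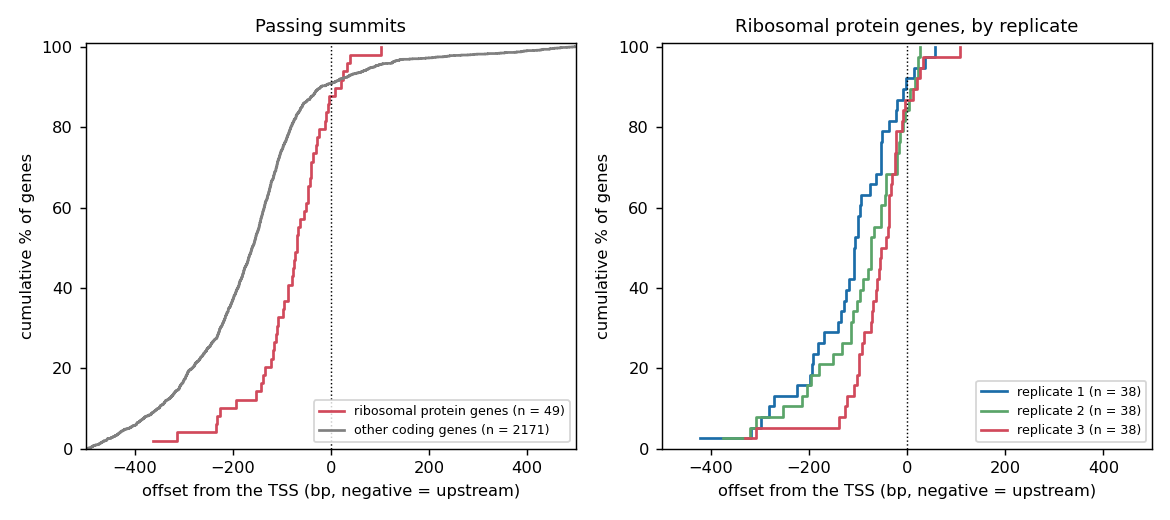
Cumulative percentage of genes by the offset of the summit from the nearest TSS (bp, negative = upstream). Left, passing summits of 49 ribosomal protein genes and 2171 other coding genes, with medians of -69 and -160 bp; right, the best summit of 38 ribosomal protein genes in each replicate, with medians of -108, -73.5 and -48.5 bp.

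The gene annotation placed 38 of the 49 summits outside every coding gene. Another 7 lay in the 5′ untranslated region of the gene itself (RpL7, RpL7A, RpL36, RpLP0, RpS15Aa, RpS16 and RpS21) and 1, of RpL26, in its intron. In 26 of the 49 genes the TSS of another coding gene lay within 500 bp of the summit, in 25 cases on the opposite strand. These placements were not counted for other coding genes. The member's TSS was the nearest in 44 genes. Another gene was nearer in the other 5, among them RpL10Ab, RpL13, RpS6 and RpS20. The summit of RpL13 lay -122 bp from its own start and in the 5′ untranslated region of Dref, 38 bp from the start of that gene, which encodes the factor that binds the DRE. The RpS6 summit, at -363 bp, was 186 bp from the start of bys, a ribosome biogenesis gene.

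Over whole promoters, from -250 to 50 bp around the start of the canonical transcript, the ribosomal protein genes differed from other genes in the elements they held. The TCT initiator, TCTTT or CCTTT on the gene's strand beginning within 5 bp of the base before the TSS, was present in 39 of the 92 genes (42.4%), and in 2.2% of all coding promoters. DRE (TATCGATA, either strand) was present in 28 (30.4% against 8.95%), the Motif 1 core (GGTCACAC) in 13 (14.1% against 7.54%) and the Motif 7 core (CATCNCTA) in 9 (9.78% against 6.33%). An E-box (CACGTG) was present in 12 (13.0% against 4.29%), the GATA core (AGATAA) in 21 (22.8% against 18.7%), GAGAG in 16 (17.4% against 30.3%) and the TATA box (TATAAA) in 42 (45.7% against 45.3%). All elements other than the TCT initiator were searched on both strands. DRE and GATA core can share letters, as can DRE and the TATA box. The TCT initiator was nearly as frequent in the passing genes (44.9%) as in the ribosomal protein genes that did not pass (39.5%). DRE was present in 36.7% of the former and 23.3% of the latter. Among the 14 genes with no summit in any list, however, DRE was present in 6 (42.9%), a higher share than in the passing genes. Of the genes with a DRE 18 of 28 passed (64.3%), and of those without one 31 of 64 (48.4%); with a TCT initiator 22 of 39 passed (56.4%), and without one 27 of 53 (50.9%). Over all coding genes the same shares were 21.6% with and 15.4% without a DRE, and 18.9% with and 15.9% without a TCT initiator, so a higher share with the element was not limited to ribosomal protein genes. For passing sites strong in both replicate 1 and replicate 2 the order for DRE was the reverse in the ribosomal protein genes. Such a site lay at 7 of 28 genes (25%) with a DRE and 18 of 64 (28.1%) without. These are matches to letters and not measured binding sites.

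Within 50 bp of the passing summit a DRE was present at 11 of the 49 sites (22.4%), and at 1.32% of the 1665 other promoter sites. Of the 25 member sites that were strong in both replicate 1 and replicate 2 it was present at 3 (12%). The 11 genes included RpL19, RpL27, RpL28, RpL36, RpL37-1, RpL41, RpS10b, RpS12, RpS15Aa and RpS25. Their median passing rank was 1962, and that of the other 38 genes was 1536, so the sites with a DRE were not the strongest. None of the 5 strongest genes was among them. In RpL27 the centre of the element was 1 bp from the summit, in RpS12 and RpL41 6 bp, and in RpS25 9 bp. The TATA box was present at 10.2% of the member sites and at 25.7% of the others, and the Motif 1 core at 4.08% and 0.721%.

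The sites at ribosomal protein genes were richer in G and C. The median GC content within 50 bp of the passing summit was 45.5% (range 22.8 to 61.4%, n = 49), and 30.7% at the other promoter sites. The value was above the median of the others in 43 of the 49 genes. Among summits within 150 bp upstream of the TSS it was 45% in 36 ribosomal protein genes and 29.7% in 808 other genes. RpS27 had 50.5%, RpL34b 42.6%, RpL7 58.4% and RpL23A 54.5%. RpS20, which ranked worst in replicate 3, had 27.7%, and RpL10Ab, which ranked best in replicate 1, had 26.7%. RpL8, RpS6 and RpL34a had similarly low contents of 22.8%, 25.7% and 26.7%, and each ranked best in replicate 3. RpL22 had the highest content, 61.4%.

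GC content was therefore set beside the ranks, in bins chosen after the ranks had been seen. At sites with a GC content of 45% and over, 21 of 21 ribosomal protein genes ranked better in replicate 3 than in replicate 1, and 40.5% of 158 other genes did. The median ratio of the rank in replicate 1 to that in replicate 3 was 4.84 and 0.858 at these sites. In the other bins the ratio was between 1.72 and 3.67 for the ribosomal protein genes, with 2 to 7 genes in a bin, and between 0.69 and 0.729 for the other genes. By the median, the ribosomal protein genes were better placed in replicate 3 in each bin, though below 30% GC this held for 3 of 5 genes. In both sets the ratio was highest at 45% GC and over. Whether GC content plays a part in the ranks was not tested.

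**Figure D4:**
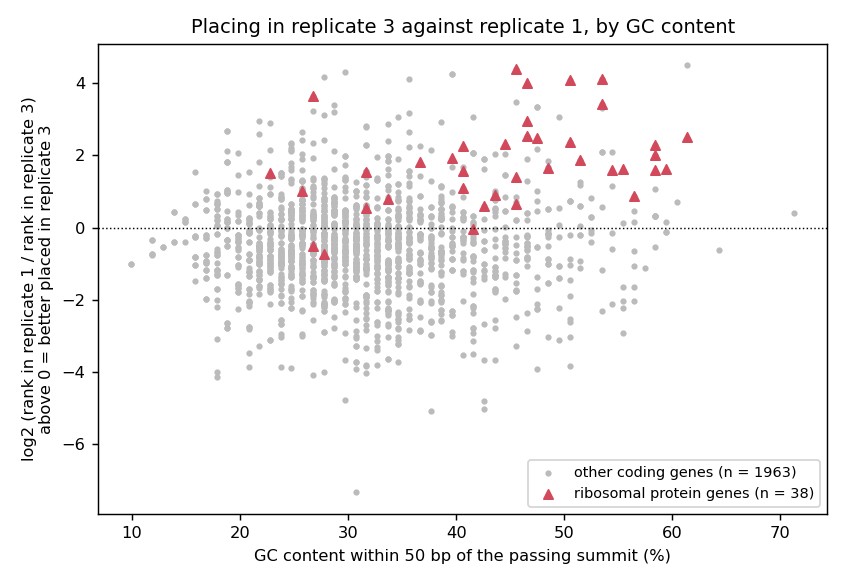
Ratio of the rank in replicate 1 to that in replicate 3 (log2 scale, above 0 = better placed in replicate 3) against GC content within 50 bp of the passing summit (%), for 38 ribosomal protein genes and 1963 other coding genes with a summit in every list. All 21 ribosomal protein genes at 45% GC and over lie above 0, whereas 40.5% of the other genes there do.

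Genes of related function had lower shares in the pooled list. For ribosome biogenesis genes the share was not lower among passing sites strong in both replicate 1 and replicate 2. Of 73 genes for mitochondrial ribosomal proteins, which serve the separate ribosome inside mitochondria, 22 had a passing summit (30.1%, exact interval 19.9 to 42.0%). Of 52 translation factor genes (symbols beginning eIF or eEF) 11 did (21.2%, 11.1 to 34.7%), and of 24 ribosome biogenesis genes 9 did (37.5%, 18.8 to 59.4%). These lists are not independent: eIF6 is in both of the last, and bys and eIF1 count through the summits of RpS6 and RpL28. The intervals for the mitochondrial genes and the translation factors end below the lower bound of the cytoplasmic ribosomal protein genes, 42.6%, and that for the biogenesis genes overlaps it. For strong summits of replicate 1 the intervals overlap, at 30.4% of the ribosomal protein genes (21.3 to 40.9%), 23.3% of the mitochondrial genes (14.2 to 34.6%) and 13.5% of the translation factors (5.59 to 25.8%). In replicate 2 the interval of the mitochondrial genes (19.9 to 42.0%) overlaps that of the ribosomal protein genes (35.2 to 56.4%). The interval of the translation factors there (11.1 to 34.7%) ends just below it. Only in replicate 3 do both (14.2 to 34.6% and 12.5 to 36.8%) end well below that of the ribosomal protein genes (56.8 to 76.8%). Passing sites among the best of both replicate 1 and replicate 2 lay at 27.2% of the ribosomal protein genes, 19.2% of the mitochondrial genes, 13.5% of the translation factors and 33.3% of the biogenesis genes. Strong summits were present at 23.3%, 30.1% and 23.3% of the mitochondrial genes in replicates 1, 2 and 3 (25.6% ± 3.95, SD, n = 3), and at 13.5%, 21.2% and 23.1% of the translation factors (19.2% ± 5.09). In the biogenesis genes replicate 3 was the lowest, where it was the highest in the ribosomal protein genes, with 37.5%, 37.5% and 20.8% (31.9% ± 9.62). Without replicate 3 the mean shares were 38.0% in the cytoplasmic ribosomal protein genes, 26.7% in the mitochondrial genes, 17.3% in the translation factors and 37.5% in the biogenesis genes, and in replicate 1 the biogenesis genes (37.5%) stood above the ribosomal protein genes (30.4%). The small-subunit components outside the naming rule were divided: Rack1, a scaffold protein, had a passing signal of 254.7 (rank 1586), and sta had a pooled summit at rank 5031.

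Introns of ribosomal protein genes in the fly often hold small nucleolar RNA (snoRNA) genes. A snoRNA on the same strand lay inside 28 of the 92 genes, and 21 of these (75%) had a passing summit, against 28 of the 64 others (43.8%). For passing sites strong in both replicate 1 and replicate 2 the counts were 13 of 28 (46.4%) and 12 of 64 (18.8%). Of the 56 other coding genes that hold a snoRNA, 22 passed (39.3%). By chromosome arm the passing genes were 7 of 19 on 2L, 9 of 21 on 2R, 10 of 14 on 3L, 10 of 23 on 3R and 12 of 14 on X. RpS3A, the 1 member on chromosome 4, passed (signal 299.5, rank 1251). Over all coding genes the share with a passing summit was between 14.2% and 17.8% on the 5 large arms. Passing sites strong in both replicate 1 and replicate 2 lay at 4 of 19 on 2L, 4 of 21 on 2R, 6 of 14 on 3L, 4 of 23 on 3R and 6 of 14 on X. No test was made of these differences between arms.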

How the data were processed

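Each replicate of the GFP-tagged CG16815 ChIP-seq was called separately by the authors. The signal value of each region was deposited by the authors, as was its −log10 q value, and both are used as they stand. Caller, aligner and versions were not given in the sources used here. Deposited coordinates are dm6, per the labels, and the same regions on dm3 were not used. No control library was analysed here, so no enrichment over background was computed.

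Genes and TSSs came from the Ensembl 115 annotation (BDGP 6.54), whose coordinates and chromosome lengths fit the deposited regions, and sequences from the RefSeq dm6 assembly. The summit of each region was assigned to every gene with a TSS within 500 bp, and the best-ranked summit was used. Summits in different lists were counted as shared within 150 bp. The assignment was tested on simulated summits at known offsets. Shares are given with exact (Clopper-Pearson) 95% binomial intervals, and replicates with mean ± SD. There was 1 group, so no significance test between groups was possible, and the lists of regions carry no read counts. The intervals cover counting error only.

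Full values were given for the 12 genes with the highest passing signal, both copies of each pair, genes strong in all 3 replicates and genes missing from a replicate list; those called nowhere are named only. A few genes enter the counts but are not reported here by name. The members and lists were chosen with earlier results of these data known. One gene was dropped from the ribosome biogenesis list because its symbol had been entered in error, leaving 24. Candidate promoter elements picked by eye from the promoters shown were also looked at and are not reported. Python 3.11.15, numpy 2.4.6, pandas 2.3.3, scipy 1.17.1 and matplotlib 3.10.9 were used.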

Additional observations from a re-analysis of the deposited data

How the results depend on the processing

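Of 49 alternative values for 9 results, 39 stayed close to the reported value (within 1.5 times for a count, within the spread otherwise) and 10 moved. Only the median offset could change sign, and it did not. The spread was wide, 18.6 for the mean share and 1059 for the median ranks. Mean shares of 31.2% with the 1961 best regions and 62.7% with the 7844 best therefore counted as close to 47.8%. In the stronger part of the passing list, its best 1961 regions, the count of ribosomal protein genes was 27 (17 large and 10 small), against 9.76% of all coding genes. Among regions in the 3922 best of both replicate 1 and replicate 2 it was 25 (15 large and 10 small; the subunit counts were chosen after seeing the data). Other windows, all pooled regions with q under 0.05, the nearest gene only, regions over the TSS and the most 5′ TSS gave 41 to 61 genes. The share of all coding genes changed with the rule, from 8.58% for regions over the TSS to 20.7% with q under 0.05. The share of ribosomal protein genes was 44.6% for regions over the TSS and 66.3% with q under 0.05. Sites found in all lists fell to 23 when summits had to lie within 50 bp. The mean share among the best regions was 38.0 to 56.5% with each replicate left out in turn, and the number of genes found again in the remaining lists was 36 to 48. The median offset was -108 bp with the best summits of replicate 1. The median rank over all genes with a summit, 2980 in replicate 1 (n = 46) and 3432 in replicate 2 (n = 74), was 1728 and 2102 when ranked among coding genes by their best summit; it was 1413 in replicate 3. No paired analysis was possible because there was 1 group. Depth is unknown, so a promoter with no called summit was not detected in these lists, not shown to be unbound.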
